A study of Oryctolagus cuniculus with 57 samples.

Results

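The genes described here make, attach and break down sialic acid, or attach fucose, on the glycans of the rabbit ileum. They were 8 genes chosen by symbol: NPL, ST3GAL4, ST6GAL1, CMAS, GNE, NANS, FUT1 and FUT2. A probe was matched to 6 of them, of 9575 named genes on the array, and 5 of these 6 passed the filter on dim probes, of 7957 genes tested. FUT1 and FUT2, which make the fucosylated H antigen, matched no probe by the names used and were not analysed here.

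Ileal RNA of commercial hybrid rabbits was measured on 1-colour arrays at 49 days of age, 2 weeks after weaning, and at weaning (35 days). The FF group had feces of unrelated, untreated does in the nest, the FFab group had feces of unrelated does that drank tetracycline and tiamulin, and the NF group was kept from ingesting feces. These treatments were given in early life only and had ended before the first sampling. All were born to does under controlled suckling, and the treatment was given by nest. The groups held 9 FF rabbits at day 49 and 10 at day 35, 9 FFab rabbits at day 49 and 10 at day 35, and 9 NF rabbits at day 49 and 9 at day 35, so that 56 arrays entered the fits. A further NF array of day 35, an outlier by the methods, was left out. The labels give neither the nest nor the sex of a rabbit, so p-values measure the spread between rabbits as if each were independent.

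Sialic acids are acidic sugars that cap the outer end of many glycans. GNE and NANS build N-acetylneuraminic acid in the cytosol, CMAS activates it with CMP in the nucleus, and sialyltransferases of the Golgi such as ST3GAL4 and ST6GAL1 add it to galactose. NPL splits the free sugar into N-acetylmannosamine and pyruvate. In mice and rats, the glycans of the gut surface are rich in sialic acid during suckling and turn to fucose around weaning, when the sialyltransferases fall and the fucosyltransferase that makes the H antigen rises. The comparison of day 49 with day 35 addresses the same age window in the rabbit, in which the fucose side was covered only by genes other than FUT1 and FUT2.

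The 60-base probes below are shown because the results turn on which stretch of a transcript was read. They are given 5′ to 3′ as the array files hold them, and the positions are those of the files on build oryCun2. The NPL probe has no position in the files. It was printed 3 times on the array, and its gene name came only from the study's table of genes called with age in FF. The second ST3GAL4 probe covers 286 bases of chromosome 1 with its 60 letters, at chr1:90682158-90682443 on the minus strand. The GNE probes lie at chr1:17768279-17768338 and chr1:17768403-17768462 on the plus strand.
NPL: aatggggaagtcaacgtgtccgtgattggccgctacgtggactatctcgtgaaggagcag
ST3GAL4, second probe: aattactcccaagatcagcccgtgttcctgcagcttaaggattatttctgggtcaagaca
GNE, probe used: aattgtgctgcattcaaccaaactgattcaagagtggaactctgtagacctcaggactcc
GNE, other probe: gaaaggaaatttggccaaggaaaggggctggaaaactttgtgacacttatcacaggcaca

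ST3GAL4 had 5 further probes tiled 1 base apart between chr1:90675010 and chr1:90675073 on the minus strand, and 1 of these was used because it had the median level. CMAS was read by 1 probe on chromosome 8, NANS by 1 on chromosome 1 and ST6GAL1 by 1 on chromosome 14. Values are background-subtracted signals, quantile normalized and on the log2 scale, so a difference of 1 is a doubling. A gene was called where its Benjamini-Hochberg adjusted p over all genes in limma was under 0.05 and its absolute log2 difference over 0.5.

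SLC10A2 and FABP6, which take up and carry bile acids in ileal enterocytes, are defining markers of the labelled tissue and were low in some arrays. SLC10A2 lay under 9 (log2) in 8 of 56 arrays: 0 of 9 FF arrays at day 49 and 0 of 10 at day 35, 2 of 9 FFab arrays at day 49 and 3 of 10 at day 35, and 1 of 9 NF arrays at day 49 and 2 of 9 at day 35. In these 8 arrays it ranged between 2.10 and 8.09 and FABP6 between 7.88 and 17.72, against 10.35 to 13.57 and 18.60 to 19.29 in the other 48. The mean of the 7 measured of 16 enterocyte markers ranged between 13.92 and 14.51 in FF at day 49 and 13.39 and 14.17 at day 35, between 12.05 and 14.32 in FFab at day 49 and 11.34 and 14.05 at day 35, and between 11.10 and 14.52 in NF at day 49 and 11.79 and 14.23 at day 35. The comparisons of the 5 tested genes were also computed without the 8 arrays, whereas those of the other listed genes and the correlations were not. Whether these samples differ in their place along the gut was not tested.

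Between the ages, 1 of the 5 tested genes was called. NPL was lower at day 49 than at day 35 in FF rabbits and over all treatments, while GNE, NANS, CMAS and ST3GAL4 did not pass the test in any group. Over all treatments 276 of 7957 genes were called (3.47%), in FF 343 (4.31%), in FFab 6 (0.0754%) and in NF 3 (0.0377%). In FFab and in NF, 0 of the 5 genes were called by limma, and 0 of the 5 had an unadjusted p under 0.05. With 5 genes, 1 call is not a share that can be read against these percentages, and the NPL probe was named because it had been called in FF. That probe also passed the filter on dim probes only through FF at day 35, the group in which it is high.

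**Figure D1:**
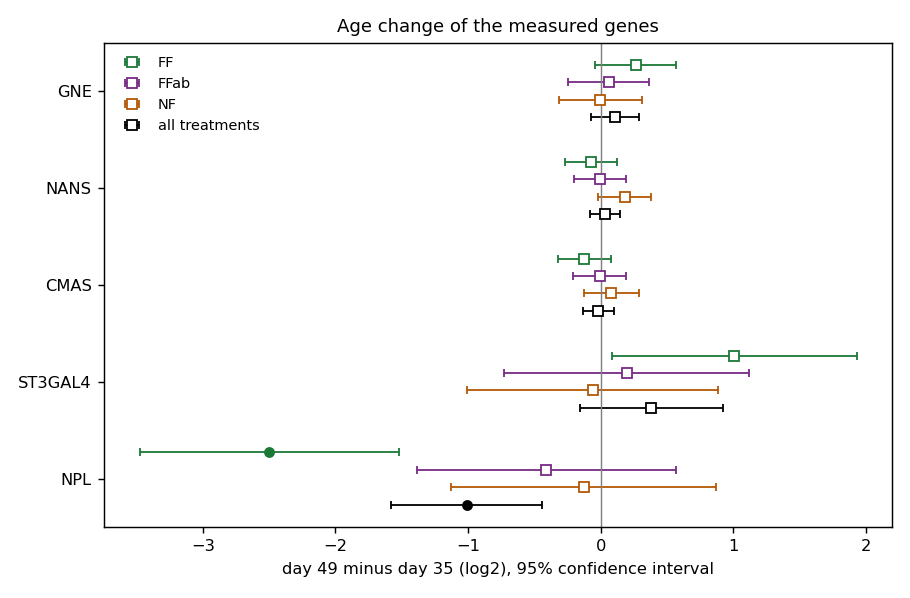
Difference between day 49 and day 35 (log2, x axis) for the 5 tested genes in FF (green), FFab (purple), NF (orange) and over all treatments (black), with 95% confidence intervals from limma. Filled circles mark called differences, which were those of NPL in FF and over all treatments, and open squares the others.

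GNE, the epimerase and kinase that starts sialic acid synthesis, was above background in 56 of 56 arrays. Its signal ranged between 6.32 and 7.23 (median 6.72) in FF at day 49 and between 5.99 and 7.02 (median 6.57) in FF at day 35. In FFab it ranged between 5.83 and 7.204 (median 6.72) at day 49 and 6.01 and 6.99 (median 6.59) at day 35, and in NF between 6.25 and 7.15 (median 6.70) at day 49 and 6.23 and 7.11 (median 6.77) at day 35. The ranges of all 6 groups overlapped. The age change was 0.27 ± 0.15 (SE) in FF, 0.06 ± 0.15 in FFab and -0.003 ± 0.16 in NF, with adjusted p of 0.326, 0.961 and 0.998 in limma. The other GNE probe gave -0.02 ± 0.20 in FF, and the 2 probes correlated with r = 0.44 over the 56 arrays, so the direction in FF depended on the probe.

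NANS joins N-acetylmannosamine 6-phosphate and phosphoenolpyruvate. Its signal ranged between 11.34 and 12.02 (median 11.48) in FF at day 49 and between 11.31 and 11.76 (median 11.60) in FF at day 35. The corresponding ranges were 11.13 to 11.60 (median 11.49) and 10.90 to 11.95 (median 11.40) in FFab, and 11.32 to 11.87 (median 11.53) and 11.22 to 11.59 (median 11.33) in NF. The ages overlapped in every treatment, and FFab at day 35 spread most. The age change of NANS was -0.07 ± 0.10 (SE) in FF, -0.01 ± 0.10 in FFab and 0.18 ± 0.10 in NF, with adjusted p of 0.766, 0.994 and 0.885 in limma.

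CMAS makes CMP-sialic acid, the donor that sialyltransferases use. Its signal ranged between 12.67 and 13.12 (median 12.86) in FF at day 49 and 12.56 and 13.33 (median 13.00) at day 35, between 12.32 and 13.18 (median 12.75) in FFab at day 49 and 12.35 and 13.09 (median 12.88) at day 35, and between 12.65 and 13.32 (median 12.86) in NF at day 49 and 12.50 and 12.97 (median 12.87) at day 35. All these ranges overlapped. Over all treatments the difference of CMAS was -0.02 ± 0.06 (SE; 95% interval -0.13 to 0.10; adjusted p = 0.908 in limma), and that of NANS 0.03 ± 0.06 (95% interval -0.08 to 0.15; adjusted p = 0.766). For GNE the interval was -0.07 to 0.29. These intervals lie inside the log2 difference of 0.5 that a call needed.

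**Figure D2:**
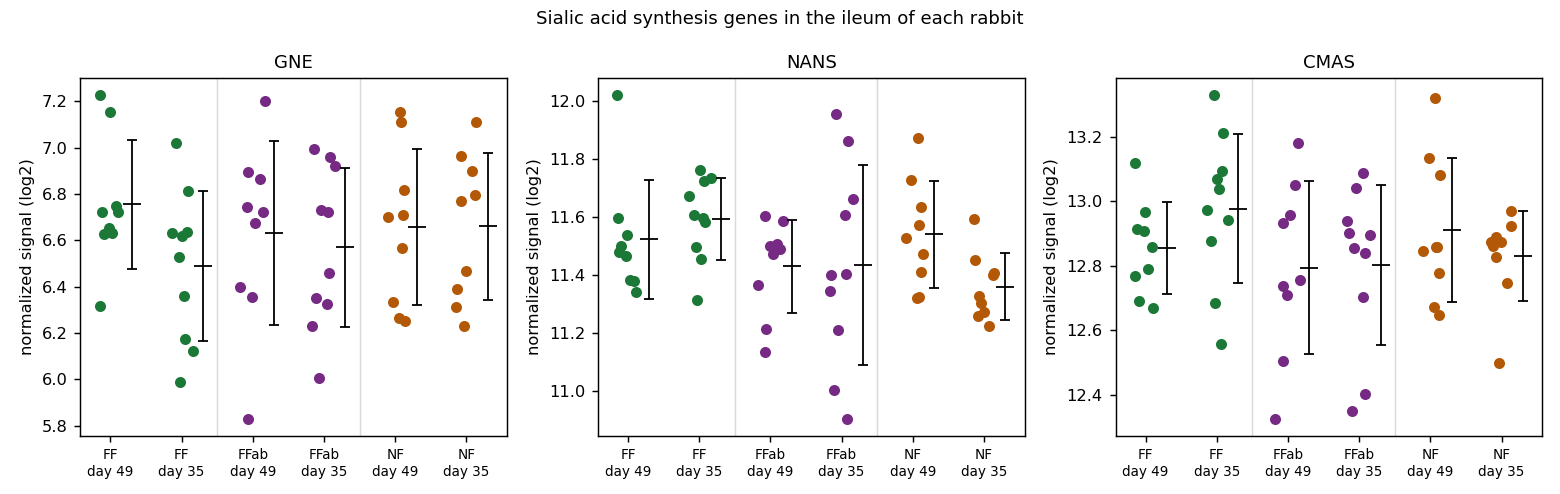
Normalized signal (log2, y axes) of GNE, NANS and CMAS in each rabbit (points) of the 6 groups (x axes), with the group mean and SD in black beside the points. The groups overlap in each panel, and each panel has its own scale.

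ST3GAL4, which adds sialic acid in alpha linkage to galactose at the end of glycan chains, was above background in every array and spread widely between rabbits. Its signal ranged between 11.45 and 14.61 (median 13.94) in FF at day 49 and between 11.62 and 13.67 (median 12.60) in FF at day 35. At day 49, 7 of 9 FF rabbits lay above the highest FF rabbit of day 35, and 1 lay below the lowest. In FFab it ranged between 11.65 and 14.58 (median 12.08) at day 49 and between 11.24 and 14.30 (median 11.83) at day 35, and in NF between 11.67 and 14.75 (median 14.22) at day 49 and between 11.57 and 14.42 (median 13.93) at day 35. The ages overlapped in every treatment. The SD within groups was 1.02, larger than that of 95.6% of the genes tested, whereas it was 0.22 for CMAS and 0.21 for NANS.

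The age change of ST3GAL4 was 1.01 ± 0.46 (SE) in FF, with an unadjusted p of 0.0333 and an adjusted p of 0.19 in limma. It was 0.20 ± 0.46 in FFab and -0.06 ± 0.47 in NF (adjusted p = 0.959 and 0.998). The second probe, which lies apart from the tiled ones, followed the one used with r = 0.98 over the 56 arrays and gave 1.16 ± 0.58 in FF (adjusted p = 0.249), and the 4 other tiled probes gave 0.99 to 1.01. The tiled probes share nearly all of their bases and are not separate measurements. On 9 slides that held both ages, the FF difference within a slide averaged 1.04 ± 1.29 (SD) and was positive on 8.

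**Figure D3:**
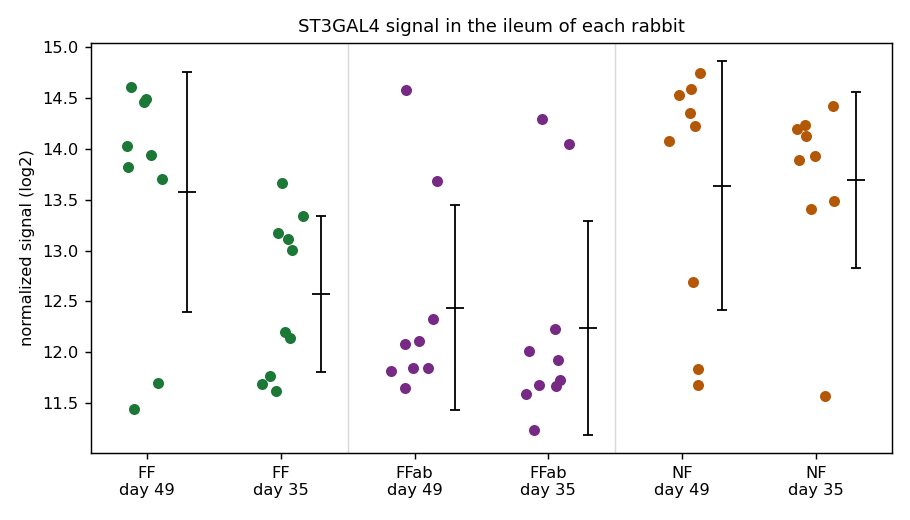
Normalized signal of ST3GAL4 (log2, y axis) in each rabbit (points) of the 6 groups (x axis), with the group mean and SD in black. The groups overlap, and 7 of 9 FF rabbits of day 49 lie above 13.67, the highest FF rabbit of day 35.

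By treatment, ST3GAL4 was ordered NF at day 35 (13.70 ± 0.87, SD), NF at day 49 (13.64 ± 1.22), FF at day 49 (13.58 ± 1.18), FF at day 35 (12.57 ± 0.77), FFab at day 49 (12.44 ± 1.01) and FFab at day 35 (12.24 ± 1.05), and each group lay within 1 SD of its neighbour. FFab minus NF was -1.20 ± 0.47 (SE) at day 49 (unadjusted p = 0.0144, adjusted p = 1 in limma) and -1.45 ± 0.46 at day 35 (unadjusted p = 0.00267, adjusted p = 1). FF minus NF at day 35 was -1.12 ± 0.46 (adjusted p = 0.487) and FF minus FFab at day 49 was 1.14 ± 0.47 (adjusted p = 1). ST3GAL4 did not pass the test in any of these comparisons, which share their groups with each other. In the 8 arrays low in SLC10A2 it was 11.24 to 12.08 in 7 and 13.49 in 1. Without them FFab minus NF was -1.30 ± 0.49 at day 49 and -1.52 ± 0.51 at day 35, and the FF age change, in which none of them took part, was 1.01 ± 0.44.

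ST6GAL1, which also adds sialic acid in alpha linkage to galactose but at another carbon, did not reach a level that could be compared. The probe stood well above background on 3 of 9 (day 49) and 0 of 10 (day 35) arrays of FF, on 3 of 9 and 3 of 10 of FFab, and on 1 of 9 and 3 of 9 of NF. Over all arrays its values ranged between 2.05 and 5.66 (log2), and the gene was left out of the tests by the filter on dim probes. With that filter removed, its age change over all treatments was -0.08 ± 0.19 (SE; adjusted p = 0.863 in limma), a value of a probe mostly not well above background.

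NPL, the lyase that breaks down free sialic acid, was dim in most rabbits, and its group mean was highest in FF at day 35 (6.61 ± 2.03, SD), followed by NF at day 35 (4.59 ± 0.93), a gap within 1 SD. Its signal ranged between 3.48 and 4.64 (median 4.06) in FF at day 49 and between 4.30 and 10.702 (median 6.21) in FF at day 35, where 3 rabbits reached 8.40, 8.53 and 10.702. All 9 FF rabbits of day 49 lay below the median of day 35 and 6 of them below its lowest rabbit, so the ranges met only at their edges. Its probe was well above background on 6 of the 9 FF arrays of day 49, against all 10 of day 35.

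In FFab the NPL signal ranged between 3.77 and 4.21 (median 4.03) at day 49 and between 3.61 and 6.16 (median 4.42) at day 35, above background in 5 of 9 and 4 of 10 arrays. In NF it ranged between 3.36 and 6.55 (median 4.29) at day 49 and between 3.31 and 6.58 (median 4.56) at day 35, above background in 5 of 9 and 6 of 9 arrays. The ages overlapped in both groups, although all 9 FFab rabbits of day 49 lay below the median of FFab at day 35. Most of these values lie near the floor of the measurement, where 20 of the 56 arrays were not above background.

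**Figure D4:**
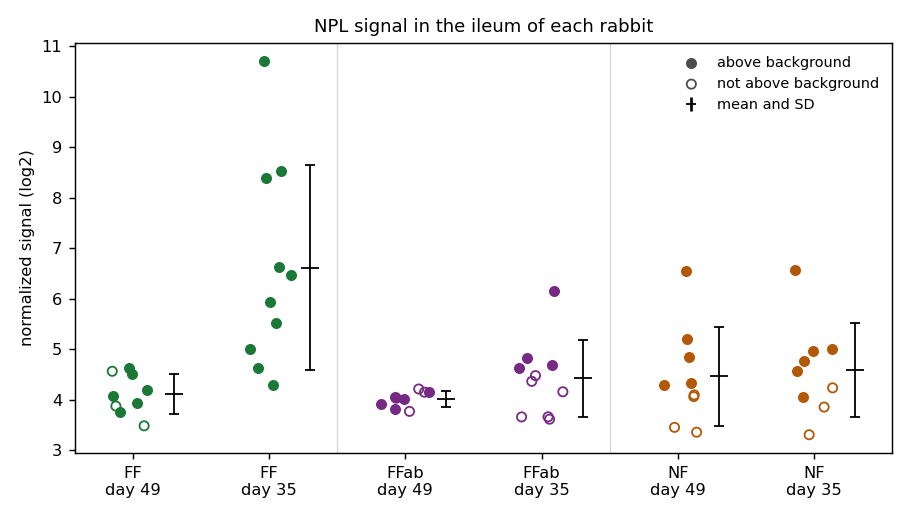
Normalized signal of NPL (log2, y axis) in each rabbit of the 6 groups (x axis). Filled points were above background and open points were not, with the group mean and SD in black. The 10 FF rabbits of day 35 are all above background and reach 10.702, and the other groups stay at or below 6.58.

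The age change of NPL was -2.50 ± 0.49 (SE) in FF, a fold of 0.177 (adjusted p = 0.000675 in limma), and -1.01 ± 0.28 over all treatments, a fold of 0.496 (adjusted p = 0.0107). These changes and their p-values are a description and support nothing further, because the probe owes its name to a call in FF and its passing of the filter to FF at day 35, whose arrays enter both. It was -0.41 ± 0.49 in FFab and -0.13 ± 0.50 in NF (adjusted p = 0.907 and 0.998). The FF value depended on how background was handled: it was -1.54 ± 0.33 without background subtraction, -1.57 ± 0.33 in the deposited table and -1.27 ± 0.29 after normexp correction, with adjusted p of 0.00226, 0.00116 and 0.00311. Over all treatments, the normexp value was -0.47 (adjusted p = 0.0486), under the log2 difference that a call needed. Without the 8 arrays low in SLC10A2 the changes were -2.49 ± 0.52 in FF and -1.03 ± 0.33 over all treatments (adjusted p = 0.00134 and 0.0286). The FF difference within a slide averaged -2.53 ± 1.97 (SD) and was negative on 9 of 9 slides.

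The treatments were then compared. None of the 5 genes was called in a difference of age changes between treatments, and neither was any of the 7957 genes (0% for each of the 3 differences by limma, with 361 genes at an unadjusted p under 0.05 for FF minus NF, 228 for FF minus FFab and 73 for FFab minus NF). For NPL the age change of FF minus that of NF was -2.37 ± 0.70 (SE), and FF minus FFab was -2.09 ± 0.69. These values are a description with no test, since they use the FF arrays through which the probe was named and kept. GNE, NANS, CMAS and ST3GAL4 had adjusted p of 0.999 or more in the 3 differences. An age change that passed the test in FF and not in the other groups was therefore not shown to differ between them.

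At day 35, 3 of 7957 genes were called for FF minus NF (0.0377%), 1 for FF minus FFab (0.0126%) and 0 for FFab minus NF (0%), and none of them was among the 5. The 3 calls for FF minus NF became 0 in 9 of 13 alternatives. NPL at day 35 was 2.19 ± 0.47 (SE) for FF minus FFab and 2.02 ± 0.49 for FF minus NF, again a description with no test, against groups in which 4 of 10 FFab and 6 of 9 NF arrays were above background. Most of the FFab values were not above background, so the size of this difference is not exact. NANS was 0.23 ± 0.10 for FF minus NF at that age (unadjusted p = 0.0195, adjusted p = 0.5). At day 49, 0 of 7957 genes were called in each of the 3 comparisons (0%), with 0, 1 and 1 of the 5 genes at an unadjusted p under 0.05 for FF minus NF, FF minus FFab and FFab minus NF. At that age NPL averaged 4.11 ± 0.40 in FF, 4.01 ± 0.16 in FFab and 4.46 ± 0.98 in NF (SD, n = 9 each).

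Around these genes, 42 of 86 genes listed for sialic acid, fucose and mucin-type O-glycans were tested. Over all treatments 0 rose and 1, NPL, fell, where 3.47% of all genes tested were called, and the median age change was 0.06, against -0.005 over all 7957 genes. The NPL probe was named through a call in FF and kept through FF at day 35. Its calls, here and in FF, are therefore no result about the list. In FF 0 rose and 1, again NPL, fell, where 4.31% of all genes were called, in FFab and NF 0 were called by limma, and 7, 1 and 0 of the 42 had an unadjusted p under 0.05 in FF, FFab and NF. Over all 7957 genes these numbers were 1666, 666 and 478, so the listed genes did not exceed the background. Over all treatments, 7 of the 42 had an unadjusted p under 0.05 in limma, against 2047 of the 7957 genes.

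Among 20 sialyltransferases, 14 had a probe, 7 were tested and 0 were called. The others with a probe did not pass the filter on dim probes. ST8SIA1, which makes the ganglioside GD3, ranged between 5.03 and 7.53 (median 6.01) in FF at day 49 and between 5.22 and 8.88 (median 7.32) at day 35, a change of -1.04 ± 0.35 (SE; adjusted p = 0.053 in limma). Its change was -0.33 ± 0.35 in FFab, 0.29 ± 0.36 in NF and -0.36 ± 0.20 over all treatments (adjusted p = 0.888, 0.998 and 0.261). ST8SIA4, a polysialyltransferase, had a change of 0.29 ± 0.09 over all treatments (adjusted p = 0.0208), which is under the log2 difference needed. ST8SIA2, the other polysialyltransferase, had -0.27 ± 0.18 (adjusted p = 0.351). It was close to background, with 5 of 9 FF arrays above it at day 49 and 6 of 10 at day 35. In synthesis and activation, 0 of 6 tested genes of 9 listed were called by limma, with 0 at an unadjusted p under 0.05 over all treatments. The sialic acid phosphatase NANP had 0.10 ± 0.07, and CASD1, which acetylates sialic acid, 0.14 ± 0.08. In removal and breakdown, 1 of 7 tested genes of 11 fell, which was NPL, whose probe was named and kept through FF arrays. The lysosomal sialidase NEU1 had 0.37 ± 0.14 over all treatments (adjusted p = 0.0776). GNPDA2, a glucosamine 6-phosphate deaminase, had -0.18 ± 0.09 (adjusted p = 0.193).

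On the fucose side, 8 of 22 listed genes were tested and 0 were called in any of the 4 age changes by limma. An unadjusted p under 0.05 was found for 1 of the 8 in FF and over all treatments, against 1666 and 2047 of all 7957 genes. FUT8, which adds fucose to the core of N-glycans, ranged between 10.31 and 10.83 (median 10.45) in FF at day 49 and between 10 and 10.82 (median 10.43) at day 35. Its ranges overlapped in every treatment, and its change over all treatments was -0.02 ± 0.06 (SE; 95% interval -0.13 to 0.10; adjusted p = 0.899 in limma). FUT10 and FUT11, also listed as fucosyltransferases, were close to background, with 7 of 9 and 6 of 9 FF arrays above it at day 49. Their changes over all treatments were 0.02 ± 0.16 and -0.17 ± 0.12.

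The supply of GDP-fucose showed as little. GMDS, which starts its synthesis from GDP-mannose, ranged between 12.04 and 12.50 (median 12.33) in FF at day 49 and between 11.87 and 12.61 (median 12.22) at day 35, and its change over all treatments was 0.08 ± 0.05 (SE; adjusted p = 0.342 in limma). The salvage kinase FCSK had 0.08 ± 0.08 and SLC35C2, of the nucleotide sugar transporter family, -0.02 ± 0.14. Of the fucosidases, which remove fucose, FUCA1 had 0.14 ± 0.06 (unadjusted p = 0.0277, adjusted p = 0.133) and FUCA2 0.07 ± 0.07. For none of the 8 fucose genes did the adjusted p over all treatments pass the threshold.

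O-glycans of mucins carry much of the sialic acid and fucose of the gut. Of 14 tested of 24 listed genes for their core and chains, 0 were called by limma over all treatments. An unadjusted p under 0.05 was found for 2 of the 14, against 2047 of all 7957 genes. GCNT1, which builds the core 2 branch, ranged between 8.01 and 9.31 (median 8.69) in FF at day 49 and between 7.71 and 8.76 (median 8.14) at day 35. Its change over all treatments was 0.39 ± 0.10 (SE; adjusted p = 0.00678), a fold of 1.31, and that of GALNT12, which starts O-glycans, 0.17 ± 0.06 (adjusted p = 0.047), both under the log2 difference needed. B3GNT7, which extends chains, had 0.15 ± 0.10 (adjusted p = 0.337).

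**Figure D5:**
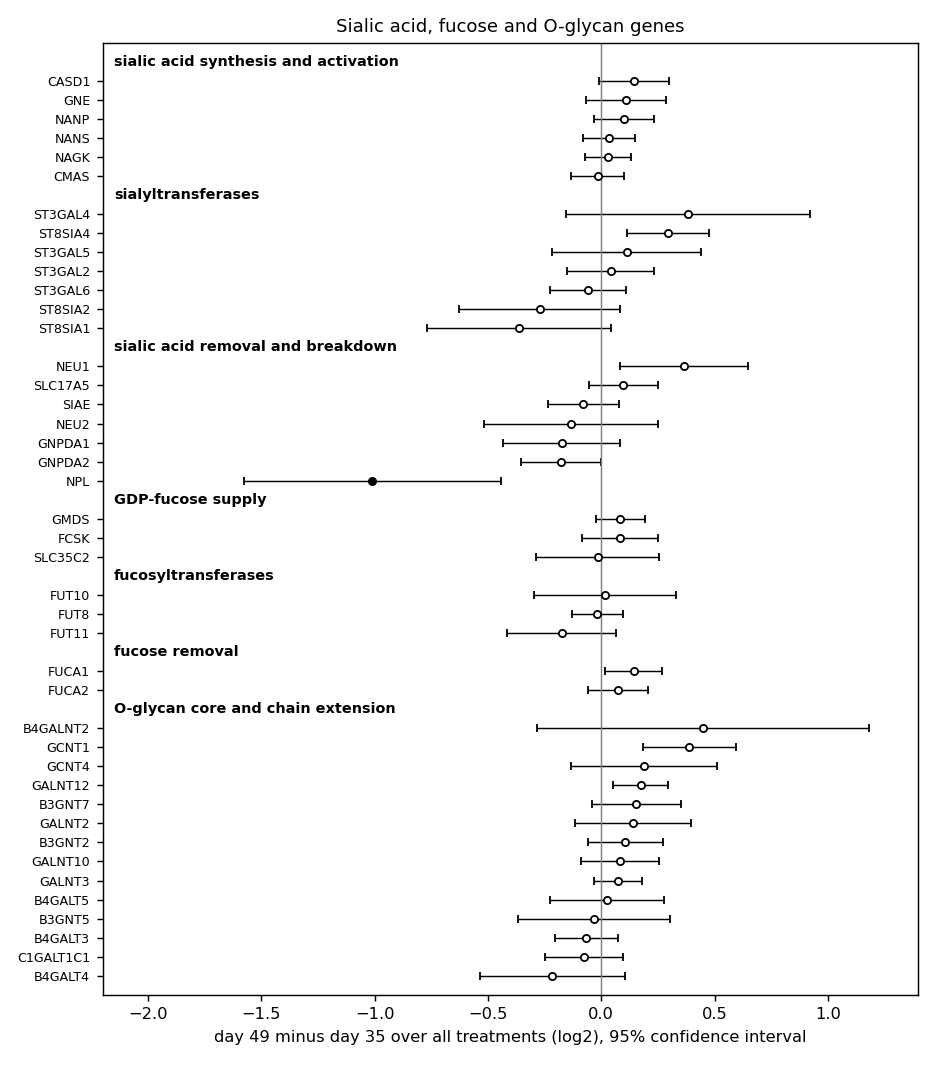
Difference between day 49 and day 35 over all treatments (log2, x axis) with 95% confidence intervals for the 42 tested genes, sorted within 7 lists (y axis). The filled point is NPL, at -1.01, the only call, and the other points lie between -0.36 and 0.45.

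In the lists of weaning genes and cell type markers, single genes were called over all treatments, beside 3.47% of all genes. ASS1, which in rodents is high in the suckling enterocyte, fell by 0.66 over all treatments (adjusted p = 5.59e-05 in limma), 1 of 4 tested weaning genes of 8 listed, and ALPI, intestinal alkaline phosphatase, rose by 0.74 (adjusted p = 0.00145), 1 of 7 enterocyte markers. Of 5 tested red blood cell markers 3 fell (CA1, ALAS2 and HBB2) and 2 were not called (EPB42 and SLC4A1). CA1 spread more widely than HBB2 in FF at day 35, between 6.59 and 13.22 against 10.13 to 11.30. Of 6 muscle markers 2 rose (TNNC1 and ACTN2) and of 5 B and plasma cell markers 2 rose (IGHM and TNFRSF17). In contrast, 0 of 4 goblet cell and 0 of 4 macrophage markers were called. In FF, the mean level of muscle markers ranged between 11.85 and 12.89 at day 49 and between 10.69 and 11.77 at day 35, and that of red blood cell markers between 6.36 and 7.44 at day 49 and between 7.02 and 8.55 at day 35. The mean levels of both lists differed in the same direction in the other treatments. Muscle markers averaged 12.27 at day 49 against 11.82 at day 35 in FFab, and 12.05 against 11.89 in NF. In NF, however, the median age change of the 6 muscle markers was -0.168, opposite to their mean. There TNNC1 averaged 5.73 at day 49 against 4.18 at day 35. At day 35 TNNC1 was above background in only 4 of 10 FF, 2 of 10 FFab and 5 of 9 NF arrays. Red blood cell markers averaged 6.775 against 7.256 in FFab, and 6.827 against 7.312 in NF. The part of these markers in the change of NPL was not tested, and in whole tissue fewer cells of a type and less RNA per cell cannot be told apart.

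Rabbits of 1 group differed among themselves in a partly shared way. After the group means were removed, 10 pairs of the 5 genes were compared over 56 arrays with a permutation test within groups (two-sided). CMAS and NANS varied together (Pearson's r = 0.52, p = 0.00012, adjusted p = 0.0012; Spearman's rho = 0.45, p = 0.00129, adjusted p = 0.0129), and r was 0.48 without the 2 most extreme arrays and 0.45 with the slide removed as well. CMAS and GNE had r = 0.40 (adjusted p = 0.026 by permutation) and rho = 0.34 (adjusted p = 0.0709), and r was 0.12 with the slide removed. None of the pairs with NPL or ST3GAL4 passed the permutation test, with r between 0.003 and 0.26. The 8 arrays low in SLC10A2 were kept in these pairs, and they include the lowest CMAS and NANS values of FFab at each age. No pair was computed without them.

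The genes most like each member over the 56 arrays, again with group means removed, were found among 7952 others and are given as a description. NPL was most like NUDCD3 (r = 0.83, 0.76 without the 2 most extreme arrays), then CPN1 (r = 0.59) and MRM1 (r = 0.58). By rank these were weaker, with Spearman's rho of 0.60, 0.41 and 0.41. NPL was above background in 36 of the 56 arrays and spread most in FF at day 35 (SD 2.03). CMAS was most like NIPSNAP2 and BBS5 (r = 0.77 each) and PDHB (r = 0.76), GNE like KCNK1 (r = 0.75), PARP11 (r = 0.73) and SLC7A6 (r = 0.71), and NANS like SEPTIN10 (r = 0.68), UAP1 (r = 0.66) and ALDH7A1 (r = 0.65). ST3GAL4 had no close match: FEZ1, KCNE3 and the ileal marker FABP6 reached r = 0.47, 0.47 and 0.46, with rho of 0.49, 0.42 and 0.275. The arrays share slides and the same normalization.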

How the data were processed

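The authors deposited, for each of 57 arrays of an Agilent rabbit design (1 colour, Cy3), a scanner file of spot intensity made with Feature Extraction (10.7.3.1 per the processing notes, 10.10.1.1 per the file headers), and a table of log2 values of 33284 probes that they had quantile normalized. The background-subtracted intensity was averaged over a probe's spots, leaving out flagged spots where others remained, set to log2 and quantile normalized (limma 3.58.1, R 4.3.3). As in the methods, the NF array of rabbit 78 was left out, 1 probe of median level stood for a gene, and 6 group means were fitted by limma with Benjamini-Hochberg adjustment over all genes. A probe entered the tests if 75% or more of any group's arrays were above background for it. The 104 tested genes named only through the study's tables of called genes, NPL among them, carry that choice. Other columns of those tables hold the authors' own fold changes and p-values and were not used. The per-spot flags (other) are per the file headers.

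The genes chosen by symbol are named throughout. Of the lists, the genes called in an age change, up to 3 per list with the smallest p over all treatments, and the 3 genes most like each member are named. The members and lists were chosen with earlier results of these data known. The number of arrays limits precision. Pairs of genes were compared with 100000 permutations within groups. The alternatives were the signal column, background correction, scaling, filter, probe rule, slide, array weights, the arrays fitted and leaving out each array. The limma fit was tested on simulated data.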

Additional observations from a re-analysis of the deposited data

Results flagged for a closer look

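In 4 of 30 sets of a gene and a group, 1 rabbit lay far from the rest by Dixon's test, which chance alone does in about 1 set of 20. NPL had 6.16 in 1 FFab rabbit of day 35, above the next value of 4.82. ST3GAL4 had 11.57 in 1 NF rabbit of day 35, which was among those low in SLC10A2, where the other 8 were at 13.41 or more. NANS had 12.02 in 1 FF rabbit of day 49, above the next value of 11.60. CMAS had 12.50 in 1 NF rabbit of day 35, below the next value of 12.75.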

How the results depend on the processing

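NPL in FF, whose probe was named and kept through these same FF arrays, was -2.76 to -2.04 when each array was left out in turn, which is no independent support. Over all treatments normexp correction gave NPL -0.4734, and 0 of the 5 tested genes of this part passed the threshold. Of the 5 tested genes, NPL passed for FF minus FFab at day 35 with 75th percentile scaling and with slide as a fixed or a random block. This is again a description with no test, because the NPL probe was kept through FF at day 35. Over all genes, 3.47% were called with age over all treatments, and 2.15% with normexp. In FFab 6 were called, against 11 in the deposited table, 16 with slide random, 30 with array weights and 1 with only the arrays compared. In NF 3 were called, against 9 with 57 arrays, 8 in the deposited table, 6 without background correction, 7 with normexp, 9 with slide random, 16 with array weights and 8 without the 8 arrays low in SLC10A2. At day 35, FF minus NF had 3 calls, against 0 in 9 alternatives, 1 with array weights, 1 with only the arrays compared and 2 without the 8 arrays. FF minus FFab had 1, against 0 with the brightest probe, array weights or only the arrays compared, 2 with 75th percentile scaling or without the 8 arrays, and 3 with slide fixed or random. The changes that turned sign all belong to uncalled values, and the cause was not tested. With all 57 arrays NF gave 0.01751 for GNE and 0.1118 for ST3GAL4. The deposited table gave 0.01113 for CMAS in FFab, and 0.02254 for GNE and 0.009662 for NPL in NF. GNE in NF was 0.02368 without background correction, 0.006216 with normexp, 0.008676 with 75th percentile scaling and 0.0883 without the 8 arrays low in SLC10A2, an alternative chosen after seeing the data. CMAS in FFab was 0.006859 with that scaling, 0.007512 with slide fixed and 0.0006831 with slide random. Array weights gave 0.00202 for NANS in FFab and 0.0198 for ST3GAL4 in NF. The other, brighter GNE probe gave -0.01571 in FF and 0.08979 in NF. Leaving out 1 array gave, in FFab, CMAS -0.05715 to 0.05203, GNE -0.009043 to 0.1635, NANS -0.06437 to 0.05265 and ST3GAL4 -0.0716 to 0.4242. In NF it gave GNE -0.06532 to 0.05292, NPL -0.387 to 0.123 and ST3GAL4 -0.3254 to 0.1853, and over all treatments CMAS -0.03352 to 0.003199. No paired analysis was possible because the rabbit numbers are not shared between groups. Among the genes chosen by symbol, signal over background limits NPL and ST6GAL1.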

Other observations

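The NF array of day 35 that was left out, of rabbit 78, had log2 values of 13.4 for CMAS, 6.44 for GNE, 11.22 for NANS, 11.98 for ST3GAL4 and 3.77 for NPL, the last not above background.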
